A study of Mus musculus with 198 samples.

Results

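The 5 genes described here encode the DNA methyltransferases Dnmt3a, Dnmt3b and Dnmt1, the methyltransferase-like cofactor Dnmt3l, and Uhrf1, the protein that brings Dnmt1 to newly replicated DNA. They were chosen by symbol, as 5 of the 34193 gene rows of the authors' table of gene methylation. All 5 had a value in each of the 8 deeply sequenced cortex libraries at both CA and CG sites. The same was true of 21302 gene rows at CA sites and of 21060 at CG sites, and these are the genes each value is set against.

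The study measured cytosine methylation by whole-genome bisulfite sequencing in mice and cultured neurons with altered Dnmt3a, in 198 samples. The 8 deep cortex libraries give every value of the 5 genes, and 12 shallow cortex libraries of 6 of the same animals are used only for background levels. The mutants were 4 heterozygous Dnmt3a knockouts (hKO), with 1 knockout allele each. They were set against 4 wild-type mice (WT). The labels put the coverage of the deep libraries at 6.4 to 7.8 genomes. All were C57BL/6J mice of 8 weeks, 2 males and 2 females per genotype, and cortex was taken from littermates, per the labels. Values are listed in the order male 694, male 046-2, female 651-2 and female 047-1 for hKO, and male 695, male 046-1, female 651-3 and female 047-2 for WT.

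The labels name no segment, promoter or Cre line for the knockout, and all tissue is a mixture of neurons, glia and vessel cells. A methylation value therefore cannot tell fewer cells with a mark from less of the mark per cell. It also does not check the deletion, since it counts methylated cytosines in whatever copies of a gene are present. Whether the deleted stretch of Dnmt3a lies in the span the authors measured is not given in the sources used here.

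Dnmt3a and Dnmt3b place new methyl groups on DNA. In neurons after birth Dnmt3a is the main writer of methylation at CA sites, a mark abundant in brain. Dnmt3l has no catalytic activity and assists the de novo enzymes, chiefly in germ cells and early embryos. Dnmt1 copies CG methylation to the new strand after replication, and Uhrf1 recognises the half-methylated site and recruits it. CA methylation has no partner site on the opposite strand that such copying could use. Bisulfite sequencing counts 5-methylcytosine together with 5-hydroxymethylcytosine, its Tet-oxidised form. Methylation at CA sites (mCA) and at CG sites (mCG) is given below as the percentage of cytosines called methylated over a gene, and differences are in percentage points.

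The windows around the annotated transcription starts show how unequally CG sites, the substrate of Dnmt1, are spread over these genes. RefSeq windows of GRCm38.p6 running from 250 bases before to 50 bases after a start were matched by symbol for all 5 genes, with 12 windows among them. The motif searched was CG, which reads the same on both strands, and its sites are in capitals. The 3 windows printed are the richest in CG of Dnmt3a and of Dnmt1 and the richest of the poorest gene, Dnmt3l. They lie at chr12:3806910-3807209 on the plus strand, chr9:20952574-20952873 on the minus strand and chr10:78042037-78042336 on the plus strand.
Dnmt3a: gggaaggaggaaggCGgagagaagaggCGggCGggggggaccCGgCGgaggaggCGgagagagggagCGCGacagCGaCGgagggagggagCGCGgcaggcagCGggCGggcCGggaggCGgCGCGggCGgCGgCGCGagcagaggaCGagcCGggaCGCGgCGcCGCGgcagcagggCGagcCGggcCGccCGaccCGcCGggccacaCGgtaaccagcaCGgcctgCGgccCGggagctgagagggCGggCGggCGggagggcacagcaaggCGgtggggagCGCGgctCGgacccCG
Dnmt1: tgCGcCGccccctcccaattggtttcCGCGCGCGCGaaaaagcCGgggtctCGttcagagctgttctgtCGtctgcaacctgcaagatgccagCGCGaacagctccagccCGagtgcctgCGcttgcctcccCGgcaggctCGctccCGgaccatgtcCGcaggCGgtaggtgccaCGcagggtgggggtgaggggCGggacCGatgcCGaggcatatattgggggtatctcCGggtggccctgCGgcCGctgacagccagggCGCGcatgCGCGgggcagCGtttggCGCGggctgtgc
Dnmt3l: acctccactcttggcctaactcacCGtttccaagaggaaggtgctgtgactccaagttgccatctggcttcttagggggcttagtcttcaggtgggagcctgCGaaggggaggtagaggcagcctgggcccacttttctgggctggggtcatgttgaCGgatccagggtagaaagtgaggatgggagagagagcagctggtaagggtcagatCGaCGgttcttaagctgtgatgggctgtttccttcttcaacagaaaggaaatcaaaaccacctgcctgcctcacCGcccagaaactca

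The Dnmt3a window holds 47 CG sites, a number reached by 1.44% of the 32851 windows in the RefSeq table, whose median is 7. The Dnmt1 window holds 33, reached by 8.56% of windows, and the richest Uhrf1 window also holds 33. The Dnmt3b window holds 30, reached by 11.7%. The richest Dnmt3l window holds 6, a number reached by 56.4%. The other Dnmt3a windows hold 46 and 18 sites and the other Dnmt1 windows 2 and 12. Whether the authors' gene spans, which are on the mm9 build, include these windows is not stated in the sources used here, so the counts describe the sequence and not the measured span.

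In the deep libraries mCA was lower in hKO than in WT cortex at most genes. The mean over all genes of a library ran from 1.15% to 1.44% in hKO and from 2.05% to 2.60% in WT. The median difference between genotypes over 21302 genes was -0.907 points, and the median gene had 56.6% of its WT level in hKO. Fitted with limma on the percentages over all genes, 72.1% of genes were lower in hKO and 0.0329% higher at an adjusted p under 0.05. In 64.6% of genes every hKO animal lay below every WT animal, and in 0.00939% every hKO animal lay above. Against that background all 5 genes had lower mCA in hKO, passed the limma test and did not overlap between genotypes, and 0 of 5 were higher. The direction is thus the one that most genes share. The median of their 5 differences was -1.28 points, beside -0.907 over all genes. These directions hold for the percentages themselves. Once each library's median over all genes is subtracted, Dnmt3a and Dnmt1 change sign and pass as higher, as do 30.6% of all genes. Dnmt3b and Dnmt3l still pass as lower, as do 24.8% of all genes, and Uhrf1 does not pass. That subtraction moves every mCA difference upward by the same amount, so the less negative ones change sign. As ratios to the library mean, none of the 5 passed. The unadjusted exact permutation p was 0.2 for Dnmt3a, 0.143 for Dnmt3b, 0.971 for Dnmt3l, 0.314 for Dnmt1 and 0.886 for Uhrf1.

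**Figure D1:**
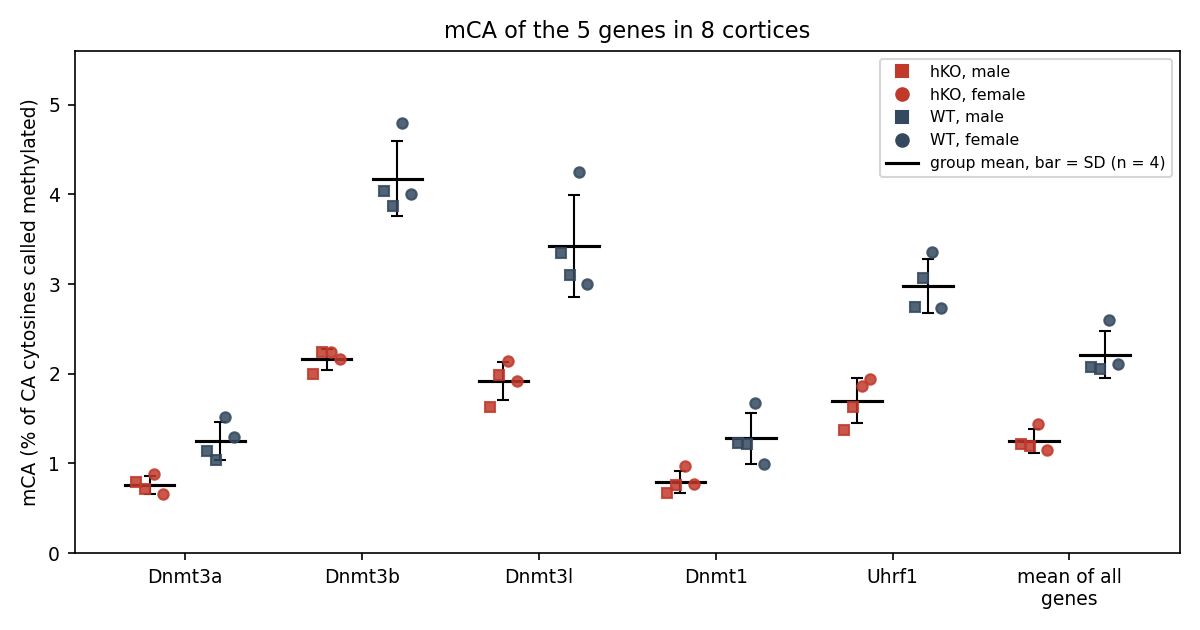
mCA (percent of CA cytosines called methylated) of the 5 genes and of the mean over all 21302 genes, with each hKO animal in red left of each WT animal in blue, squares for males and circles for females. Horizontal lines are group means with bars of 1 SD (n = 4). Every hKO animal lies below every WT animal at all 5 genes. Relative to the library median the differences of Dnmt3a and Dnmt1 change sign, where 30.6% of all genes pass as higher.

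Dnmt3a, the gene knocked out on 1 allele in hKO, was among the genes poorer in mCA. Its mCA was 0.794%, 0.715%, 0.881% and 0.655% in the hKO animals, against 1.14%, 1.04%, 1.52% and 1.296% in the WT animals. The highest hKO animal, female 651-2, lay below the lowest WT animal, male 046-1, so the groups did not overlap. The group means were 0.761% ± 0.0982 in hKO and 1.25% ± 0.212 in WT (SD, n = 4 each). The difference of -0.486 points (SE 0.140) passed limma's test with an adjusted p of 0.0115. After subtraction of each library's median it was 0.425 points (limma adjusted p = 0.00243), where 30.6% of all genes pass as higher. hKO cortex had 61.0% of the WT level. Among all genes, the level of Dnmt3a stood at percentile 28.5 to 33.5 in hKO libraries and 26.1 to 34.8 in WT libraries. With the females alone, 2 animals a genotype, the difference of -0.640 points did not pass (limma adjusted p = 0.170).

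Dnmt3b, the other de novo enzyme, had the highest mCA of the 5 genes. Its mCA was 2.00%, 2.24%, 2.24% and 2.16% in hKO and 4.04%, 3.87%, 4.80% and 4.00% in WT. No hKO animal exceeded 2.24% and no WT animal fell below 3.87%. The means of 2.16% ± 0.114 in hKO and 4.18% ± 0.421 in WT (SD, n = 4 each) differed by -2.02 points (SE 0.254), with a limma adjusted p of 0.000692. hKO cortex thus had 51.7% of the WT level, and 5.13% of genes had a difference at least as negative. Its percentile was 85.6 to 92.5 in hKO and 90.2 to 93.7 in WT libraries.

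Dnmt3l, the cofactor without catalytic activity, came next. mCA over this gene was 1.63%, 1.98%, 2.15% and 1.91% in hKO animals, against 3.35%, 3.10%, 4.25% and 3.00% in WT animals. The WT female 651-3 stood highest and the hKO male 694 lowest, with a gap between the groups. Mean mCA was 1.92% ± 0.215 in hKO and 3.43% ± 0.570 in WT (SD, n = 4 each), a difference of -1.51 points (SE 0.292, limma adjusted p = 0.00157) and 56.02% of the WT level. Its place among genes was alike in both genotypes, at percentile 74.4 to 87.1 in hKO and 74.1 to 87.3 in WT.

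Dnmt1, the maintenance enzyme, had the least certain difference. The hKO animals had 0.676%, 0.756%, 0.970% and 0.771%, and the WT animals 1.23%, 1.22%, 1.67% and 0.998%. The groups did not overlap, but hKO female 651-2 and WT female 047-2 nearly met. The means were 0.793% ± 0.125 in hKO and 1.28% ± 0.281 in WT (SD, n = 4 each), which is 62.1% of the WT level. With each library's median subtracted the difference was 0.426 points (limma adjusted p = 0.00182), where 30.6% of all genes pass as higher. On the percentages as deposited it was -0.485 points (SE 0.162) and passed limma's test with an adjusted p of 0.0224. The call was lost without hKO male 694 (-0.446 points, limma adjusted p = 0.0654), without hKO male 046-2 (-0.473, adjusted p = 0.0573), without hKO female 047-1 (-0.477, adjusted p = 0.0516) and in females alone (-0.463, adjusted p = 0.330).

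Uhrf1, the recruiter of Dnmt1, had mCA of 1.38%, 1.62%, 1.86% and 1.94% in hKO, against 2.75%, 3.07%, 3.36% and 2.73% in WT. The highest hKO animal, female 047-1, and the lowest WT animal, female 047-2, were well apart. Mean mCA was 1.70% ± 0.252 in hKO and 2.98% ± 0.297 in WT (SD, n = 4 each), and the difference was -1.28 points (SE 0.215, limma adjusted p = 0.000879). hKO cortex had 57.1% of the WT level. The difference did not pass in females alone (-1.15 points, limma adjusted p = 0.0595) or with library medians subtracted (-0.366 points, adjusted p = 0.0722).

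For each of the 5 genes an exact permutation of the mCA values (two-sided) had p = 0.0286, the smallest that the 70 arrangements of 4 against 4 allow. More negative differences than that of Dnmt3a were found in 72.7% of genes, than that of Dnmt1 in 72.8%, than that of Uhrf1 in 31.2% and than that of Dnmt3l in 19.9%. The 3 genes with more mCA had the larger differences in points, as the plot of all genes shows.

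**Figure D2:**
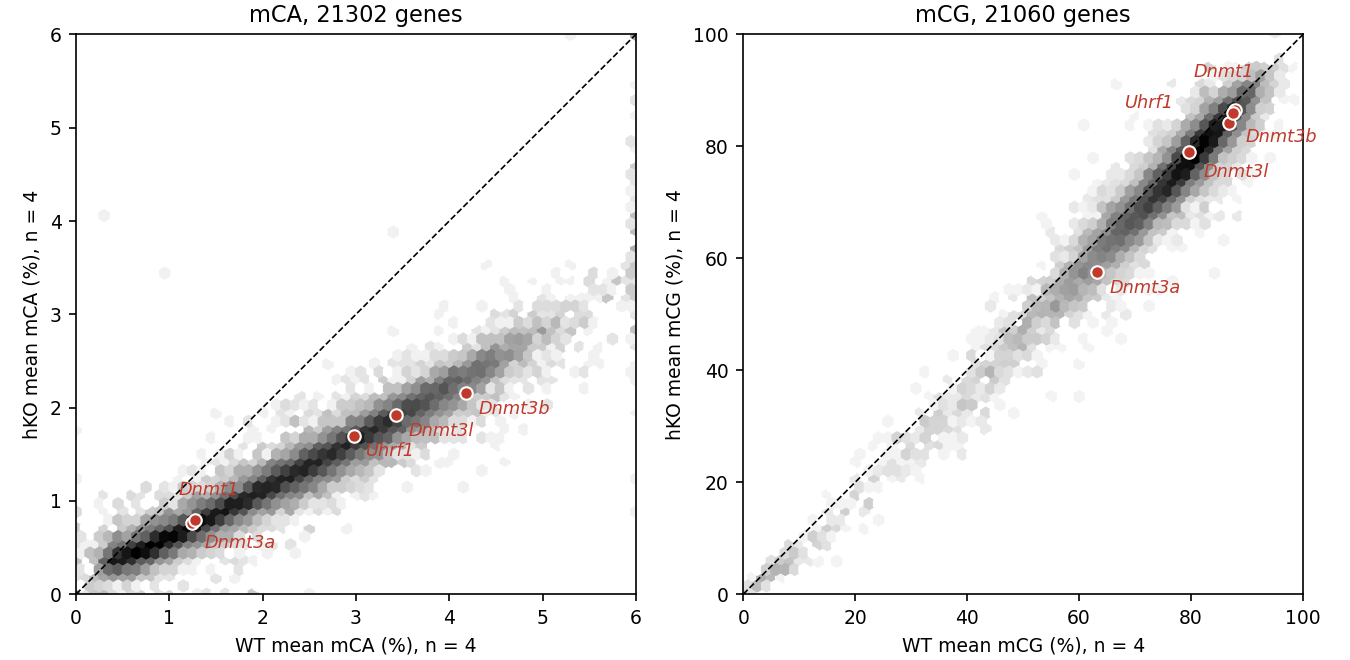
Mean methylation per gene in hKO (vertical axis, percent, n = 4) and WT (horizontal axis, percent, n = 4) for mCA (left, 21302 genes, values past 6% drawn at the edge) and mCG (right, 21060 genes), with darker hexagons for more genes on a log scale and a dashed line of equal levels. The 5 genes, in red, lie within the cloud of genes in both contexts, below the dashed line. Relative to library medians, the mCA differences of Dnmt3a and Dnmt1 change sign, where 30.6% of all genes pass as higher. The mCG differences of Dnmt3l, Dnmt1 and Uhrf1 also change sign, where 0 of all genes pass.

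The order of the levels was the same in both genotypes for mCA. Neighbours in the order were compared within the 8 animals by exact two-sided sign-flip permutation tests, 8 comparisons over both contexts. These were added after the values had been seen and adjusted over the 8. The pairs and their direction came from the means of the same 8 animals, so the p-values are no independent test of the order. Dnmt3b exceeded Dnmt3l in 8 of 8 animals, by 0.496 points on average (permutation adjusted p = 0.0156). Dnmt3l exceeded Uhrf1 in 7 of 8 animals, by 0.334 points (permutation adjusted p = 0.025), and Uhrf1 exceeded Dnmt1 in 8 of 8, by 1.30 points (permutation adjusted p = 0.0156). Dnmt1 and Dnmt3a differed by 0.0313 points, with Dnmt1 higher in 6 of 8 animals, and could not be told apart (permutation p = 0.602). The mCA levels thus fell into Dnmt3b, Dnmt3l and Uhrf1 above the mean of all genes and Dnmt1 with Dnmt3a below it.

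Differences in mCG were much smaller relative to the level. Over 21060 genes the median difference was -2.18 points, the median gene had 97.2% of its WT level in hKO, and 17692 genes had a lower mean in hKO. At an adjusted p under 0.05 limma called 0% of genes lower and 0% higher, with 2195 genes at an unadjusted p under 0.05. In 4.94% of genes every hKO animal lay below every WT animal, and in 0.0570% every hKO animal lay above. None of the 5 genes passed the limma test, 1 of 5 had an unadjusted p under 0.05, and the groups did not overlap at 1 of 5. That gene in both counts was Dnmt3a.

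**Figure D3:**
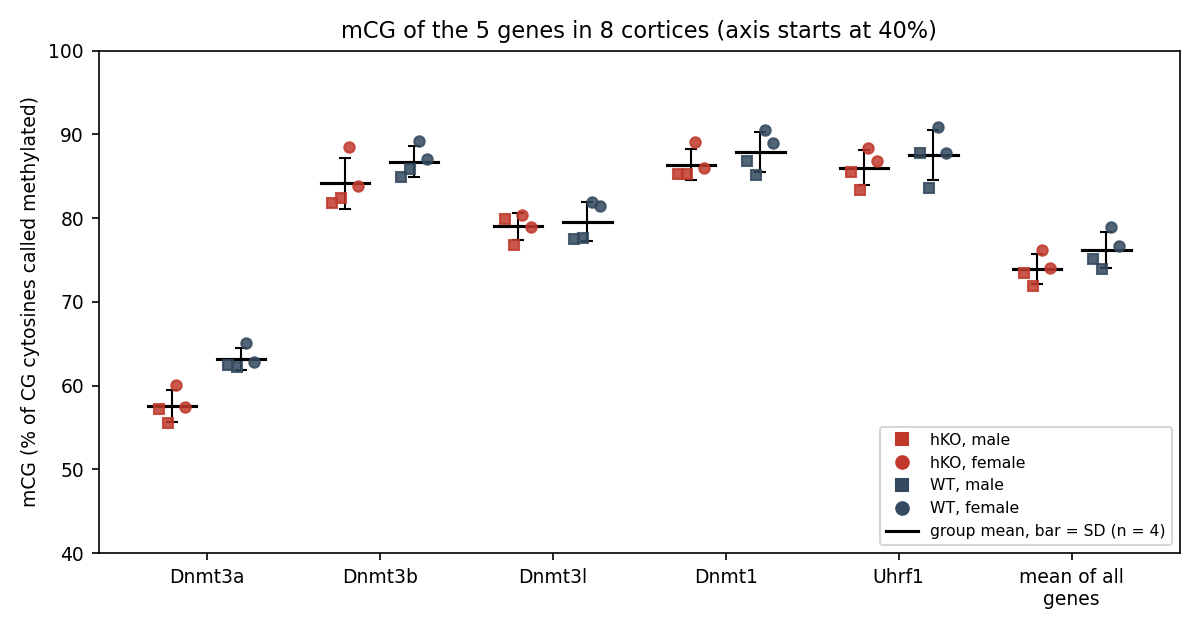
mCG (percent of CG cytosines called methylated, axis from 40%) of the 5 genes and of the mean over all 21060 genes, hKO animals in red left of WT animals in blue, squares for males and circles for females, lines and bars for means and 1 SD (n = 4). Dnmt3a lies below the other genes and its hKO animals, at 55.5% to 60.1%, lie below its WT animals, at 62.2% to 65.1%. The other 4 genes overlap between genotypes. Relative to library medians the differences of Dnmt3l, Dnmt1 and Uhrf1 change sign, where 0 of all genes pass.

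Dnmt3a had mCG of 57.3%, 55.5%, 60.1% and 57.5% in the hKO animals, against 62.4%, 62.2%, 65.1% and 62.9% in the WT animals. The hKO and WT values did not overlap, and female 651-2 and female 651-3 were the highest of their genotypes. The means of 57.6% ± 1.88 in hKO and 63.2% ± 1.33 in WT (SD, n = 4 each) differed by -5.57 points (SE 2.24). limma gave p = 0.0317 before and 0.476 after adjustment, and an exact two-sided permutation of the 8 values had p = 0.0286, the smallest possible. The difference was negative under each alternative computed and in each sex, with -5.93 points in males and -5.22 points in females, and 9.10% of genes had a difference at least as negative. In every library Dnmt3a was among the genes poor in mCG, at percentile 8.66 to 8.92 in hKO and 9.42 to 11.6 in WT.

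The other de novo enzyme and the cofactor overlapped between genotypes in mCG. Dnmt3b had 81.9%, 82.5%, 88.6% and 83.8% in hKO and 84.9%, 85.9%, 89.2% and 87.1% in WT, a difference of -2.58 points (SE 1.86, limma adjusted p = 0.534). Dnmt3l had 79.9%, 76.8%, 80.4% and 78.9% in hKO and 77.5%, 77.6%, 81.9% and 81.4% in WT, a difference of -0.584 points (SE 1.66, limma adjusted p = 0.870). For Dnmt3l the sign was not fixed: in males alone the difference was 0.803 points.

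The maintenance pair had the highest mean mCG in both genotypes, though not separably so from Dnmt3b. Dnmt1 had 85.3%, 85.3%, 89.2% and 86.0% in hKO animals, against 86.8%, 85.1%, 90.6% and 89.0% in WT animals (difference -1.46 points, SE 1.77, limma adjusted p = 0.690). Uhrf1 had 85.6%, 83.4%, 88.4% and 86.9% in hKO animals, against 87.8%, 83.6%, 90.9% and 87.7% in WT animals (difference -1.46 points, SE 1.93, limma adjusted p = 0.715). Both overlapped between genotypes, and with library medians subtracted both differences were 0.82 points, on the other side of 0. Neither passed there (limma adjusted p = 0.653 for Dnmt1 and 0.731 for Uhrf1), where 0 of all genes pass as lower or higher. That subtraction moves every mCG difference upward by the same amount. With 1 animal left out the difference ran from -2.38 to -0.563 points at Dnmt1, from -2.76 to -0.333 at Uhrf1 and from -4.04 to -1.77 at Dnmt3b. In each genotype the female numbered 651 was the highest of the 4 animals at all 5 genes in mCG. The same animals also had the highest mean mCG over all genes, 76.2% in hKO and 78.9% in WT.

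The mCG order differed from the mCA order. Dnmt3l exceeded Dnmt3a in 8 of 8 animals, by 18.9 points, and Dnmt3b exceeded Dnmt3l in 8 of 8, by 6.16 points (exact permutation, adjusted p = 0.0156 each). At the top, Uhrf1 and Dnmt3b differed by 1.31 points (permutation adjusted p = 0.135) and Dnmt1 and Uhrf1 by 0.367 points (permutation adjusted p = 0.438), with no order fixed. Dnmt1 stood low in mCA and high in mCG: its percentile was 26.6 to 38.6 in hKO and 26.9 to 31.7 in WT for mCA, against 88.5 to 93.7 in hKO and 90.1 to 92.7 in WT for mCG. Dnmt3a stood low in both contexts.

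Because most genes had less mCA in hKO, each gene was also set against its own library by dividing its percentage by the mean over all genes of that library. For mCA the ratio was 0.608 ± 0.0361 in hKO and 0.563 ± 0.0471 in WT for Dnmt3a, and 1.74 ± 0.160 in hKO and 1.89 ± 0.0429 in WT for Dnmt3b (SD, n = 4 each). For Dnmt3l it was 1.54 ± 0.151 in hKO and 1.54 ± 0.0980 in WT. For Dnmt1 it was 0.632 ± 0.0533 in hKO and 0.575 ± 0.0718 in WT, and for Uhrf1 1.37 ± 0.230 in hKO and 1.35 ± 0.0969 in WT. None of the 5 differed beyond the spread between animals, with exact two-sided permutation p from 0.143 for Dnmt3b to 0.971 for Dnmt3l before adjustment. The differences between genotypes were 0.0452 for Dnmt3a, -0.156 for Dnmt3b, -0.00689 for Dnmt3l, 0.0578 for Dnmt1 and 0.0150 for Uhrf1, and that of Dnmt3l was 0.0304 against the library median.

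For mCG the same ratio of Dnmt3a was 0.779 ± 0.00697 in hKO and 0.8294 ± 0.00916 in WT (SD, n = 4 each), without overlap. The difference of -0.0503 gave an exact two-sided permutation p = 0.0286, the smallest possible, but did not pass after Benjamini-Hochberg adjustment over the 10 exact permutation tests of this kind (adjusted p = 0.190). Against the library median the exact permutation p was also 0.0286, and 0.286 after adjustment over 10. The share of all genes whose ratios do not overlap was not computed. On the percentages, hKO lay below WT without overlap in 4.94% of genes. On the log2 scale of the ratio, fitted over all genes, the difference of Dnmt3a was -0.09 and did not pass (limma adjusted p = 0.248). The ratios of Dnmt3l were 1.07 in hKO and 1.05 in WT and those of Dnmt1 were 1.17 in hKO and 1.15 in WT, each with an exact permutation p = 0.0571. The ratio of Uhrf1 was 1.16 in hKO and 1.15 in WT, with p = 0.143 in the exact permutation, and that of Dnmt3b was 1.14 in both genotypes, with p = 1.0 in the exact permutation.

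**Figure D4:**
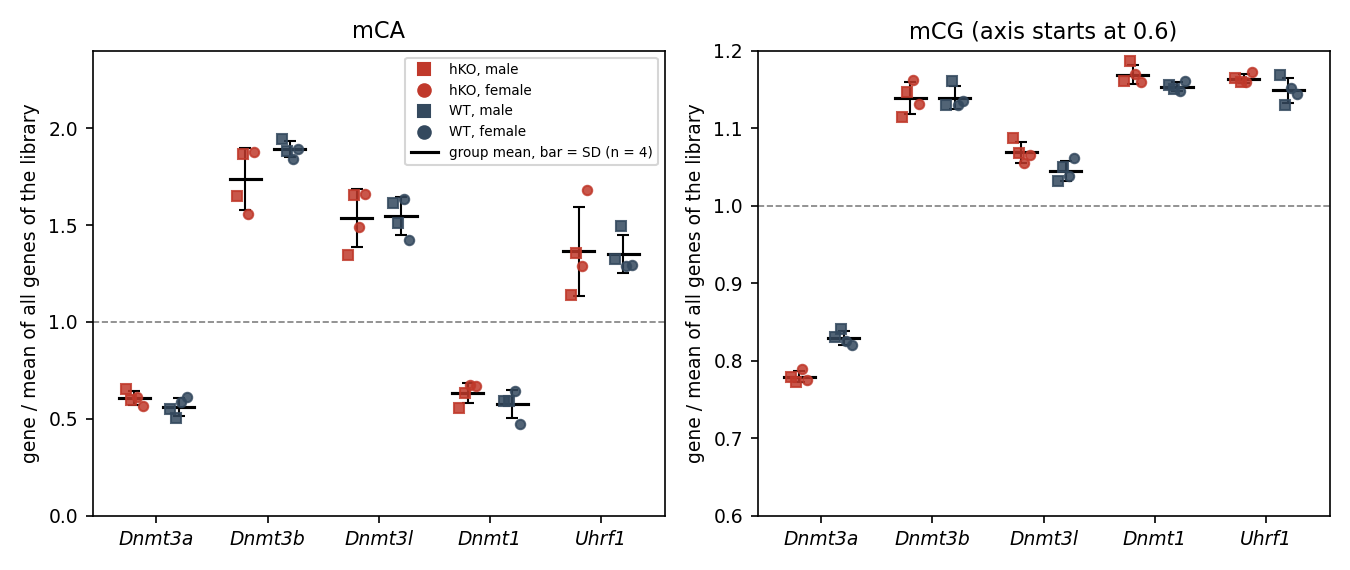
Methylation of each gene divided by the mean over all genes of the same library, for mCA (left) and mCG (right, axis from 0.6), hKO animals in red left of WT animals in blue, squares for males and circles for females, lines and bars for means and 1 SD (n = 4). The dashed line at 1 is the library mean. The groups overlap in mCA at all 5 genes. In mCG the hKO ratios of Dnmt3a, with a mean of 0.779, lie below the WT ratios, with a mean of 0.8294. The share of all genes whose ratios do so was not computed.

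Sex and genotype were examined together, and the sexes also differ in the sequencing instrument named in their labels, so that sex and instrument cannot be told apart. In a limma model with the interaction, 0.00939% of genes for mCA and 0% for mCG had a difference between genotypes that itself differed between the sexes, with 727 and 647 genes at an unadjusted p under 0.05. Among the 5 genes 0 passed in either context, 0 had an unadjusted p under 0.05, and the unadjusted limma p of the interaction was at least 0.274. Dnmt3a mCA averaged 0.754% in hKO males and 1.09% in WT males, and 0.768% in hKO females and 1.41% in WT females. The hKO level was thus 69.5% of WT in males and 54.5% in females, a difference that the interaction test did not call (limma adjusted p = 1). For Uhrf1 these shares were 51.6% in males and 62.3% in females, in the other order.

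The number of sites available differed among the genes. The authors' deposited table also gives group means labelled as methylation per length. Each equals the mean fraction times a number per gene that is the same in both genotypes, which is read here as the density of CA or CG sites in the measured span. The implied density of CG sites per 1000 bases was 35.4 at Dnmt1, at percentile 90.0 among genes, 27.6 at Uhrf1, 25.6 at Dnmt3a, 25.5 at Dnmt3l and 22.3 at Dnmt3b, against a median of 20.4 over 21055 genes. For CA sites it was 170 at Uhrf1, 164 at Dnmt1, 162 at Dnmt3b, 160 at Dnmt3a and 151 at Dnmt3l, with a median of 153. Scaled to 1000 bases, the authors' deposited table gives 1.22 methylated CA sites in hKO and 1.99 in WT at Dnmt3a, and 3.50 in hKO and 6.76 in WT at Dnmt3b. The same authors' deposited table gives 30.6 methylated CG sites per 1000 bases in hKO and 31.1 in WT at Dnmt1, and 14.7 in hKO and 16.2 in WT at Dnmt3a. Whether 1 or both strands were counted is not stated, so the densities serve to rank genes within a context.

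Genes that read, remove, guide or supply DNA methylation were taken from a list of 44 symbols, of which 43 were in the table (Nsd2 stands there as Whsc1) and 40 had mCA in all 8 animals. Gadd45a, Gadd45b and Apex1 lacked a value in some animals. Of the 40, 24 had lower mCA in hKO by limma (60%, beside 72.1% of all genes) and 0 higher, and in 22 (55%, beside 64.6%) the genotypes did not overlap. Their median difference was -0.547 points, beside -0.907 over all genes, and with library medians subtracted 4 were lower and 23 higher, beside 24.8% and 30.6% of all genes. That subtraction moves every difference upward by the same amount, so the counts by role below are for the percentages as deposited and the less negative differences change sign under it. In mCG limma called 0 of the 40 in either direction, with a median difference of -2.11 points beside -2.18. In 1 of the 40 (2.5%, beside 4.94% of all genes) every hKO animal lay below every WT animal in mCG. That gene was Mbd4, a methyl-CG binding DNA glycosylase.

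Among readers and methyl-binding proteins 6 of 9 had lower mCA in hKO (66.7%, beside 72.1% of all genes). The most negative difference was at Mbd2, a methyl-CG binding repressor, with 1.65% ± 0.0665 in hKO and 2.70% ± 0.281 in WT (-1.05 points, limma adjusted p = 0.000989). The least negative was at Mbd3, a subunit of the NuRD repressor complex, with 0.335% ± 0.203 in hKO and 0.626% ± 0.111 in WT, which did not pass (limma adjusted p = 0.0609). Among genes of oxidation and removal 3 of 6 were lower (50%, beside 72.1% of all genes). The ends of that group did not pass the limma test: the uracil glycosylase Smug1 had 2.32% ± 0.361 in hKO and 3.74% ± 1.47 in WT (adjusted p = 0.0661), and the thymine glycosylase Tdg 0.512% ± 0.171 in hKO and 0.795% ± 0.238 in WT (adjusted p = 0.111).

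Among maintenance partners 5 of 7 had lower mCA (71.4%, beside 72.1% of all genes). Cdca7, a partner of the remodeller Hells, had 3.49% ± 1.05 in hKO and 5.63% ± 1.22 in WT (-2.14 points, limma adjusted p = 0.0206). Pcna, the replication clamp, was the 1 gene of the 40 with a higher mean in hKO, with 0.657% ± 0.489 in hKO and 0.351% ± 0.266 in WT (limma adjusted p = 0.264), and so did not pass. Uhrf2, the paralogue of Uhrf1, is named after its values were seen; it fell to 0.787% ± 0.166 in hKO, against 1.46% ± 0.141 in WT (-0.672 points, limma adjusted p = 0.00219), a level below that of Uhrf1 in both genotypes.

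In the group that guides methylation through histone marks 7 of 12 were lower (58.3%, beside 72.1% of all genes). Kdm2b, which binds unmethylated CG, had 1.82% ± 0.167 in hKO and 3.24% ± 0.357 in WT (-1.41 points, limma adjusted p = 0.000736), and Trim28, a corepressor of zinc finger proteins, had 0.474% ± 0.0843 in hKO and 0.555% ± 0.241 in WT (adjusted p = 0.592). Of the genes of methyl donor supply 2 of 5 were lower (40%, beside 72.1% of all genes). Methionine synthase, Mtr, had 1.83% ± 0.178 in hKO and 3.37% ± 0.209 in WT (-1.54 points, limma adjusted p = 0.000692), while Mat2b, a regulatory subunit of methionine adenosyltransferase, had 0.420% ± 0.0928 in hKO and 0.670% ± 0.289 in WT (adjusted p = 0.155). Trdmt1, related to the methyltransferases by sequence and acting on transfer RNA, had 1.65% ± 0.184 in hKO and 3.08% ± 0.360 in WT (-1.43 points, limma adjusted p = 0.000706).

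**Figure D5:**
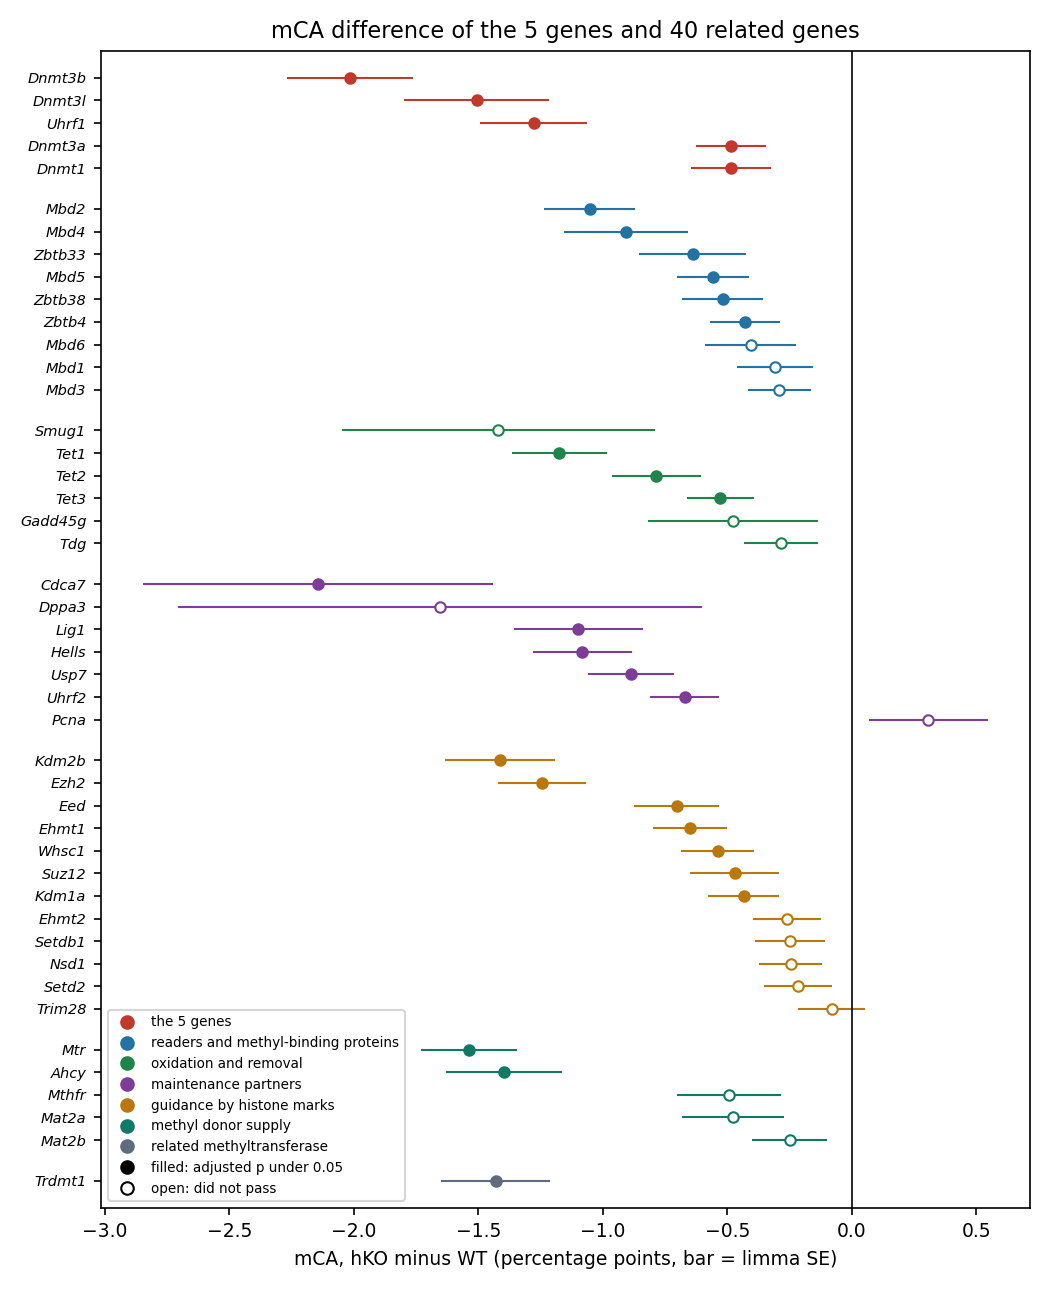
Difference in mCA, hKO minus WT, in percentage points (horizontal axis, bars are limma standard errors), for the 5 genes at the top and 40 genes of DNA methylation grouped by role, with 4 animals per genotype. Filled points passed limma at an adjusted p under 0.05; all lie left of 0 except Pcna, which did not pass, whereas with library medians subtracted 23 of the 40, beside 30.6% of all genes, pass on the other side.

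The genes whose mCA was most like that of each of the 5 over the 8 animals were found by the smallest root mean square difference among 16546 named genes. For Dnmt3a these were Thoc5 (0.0452 points) and Rock2 (0.0585), and for Dnmt1 Cyp2j5 (0.0557) and Fam160b2 (0.0597). For Dnmt3b they were Slc41a3 (0.0849) and Rxrg (0.115), for Dnmt3l Rnf213 (0.135) and Chaf1b (0.136), and for Uhrf1 Clca6 (0.124) and Hk3 (0.135). Thoc5, closest of these 10, averaged 0.780% in hKO and 1.28% in WT, beside 0.761% in hKO and 1.25% in WT for Dnmt3a.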

How the data were processed

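Cortex DNA was bisulfite-converted and sequenced genome-wide. The authors' deposited table holds 1 fraction of methylated cytosines per gene, context and library. The submitters' processing notes name BS-Seeker2, bedtools and the mm9 build; versions, gene spans and coverage minima are not given in the sources used here. The labels give a coverage of 6.4 to 7.8 genome equivalents per library; the number of cytosines behind a gene's value is unknown, so no counting intervals were computed. A further 4 columns of the authors' group means were not used, and their means per length entered no test.

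Fractions were multiplied by 100. Genes with a value in all 8 libraries were fitted with limma 3.58.1 in R 4.3.3 (eBayes with a trend). Adjustment was by Benjamini-Hochberg over all of them at a threshold of 0.05. The method was run on simulated data in which a small share of genes changed. That run does not cover a fall at most genes, as in mCA, or mCG differences as small as those seen here. The limma p-values and SEs rest on spreads between animals that are drawn toward a trend over all genes, not on a gene's own spread alone. For mCG of Dnmt3a the SE was 2.24 points with the trend and 1.61 without. Single ratios were compared by exact two-sided permutation tests in Python 3.11.15 with scipy 1.17.1; 10 were made on ratios to the library mean and 10 on ratios to the library median, each family adjusted over its 10. The members and lists were chosen with earlier results of these data known. Named genes were the 5 genes, the most and least negative mCA difference per role of the list, and the 2 nearest genes by root mean square difference, leaving out symbols of predicted and RIKEN models; 1 gene of the list is not reported here. Animals sharing a title number (046, 047, 651) were not treated as pairs, since no label says that the number marks a litter. Their deviations from the group means correlated over genes by 0.0370 to 0.114 in mCA and 0.0845 to 0.120 in mCG, not all above 0.1. Such a correlation leaves out any shift shared by whole libraries. In library mean mCG, 046 was lowest (71.9% in hKO, 74.0% in WT) and 651 highest (76.2% in hKO, 78.9% in WT) in both genotypes. Alternatives were a logit scale with an offset of 0.1%, library medians subtracted, log2 ratios with a pseudocount of 0.1%, sex as covariate, each sex alone, each animal left out, a block on the title number, looser and stricter filters, no trend, and, added after the data had been seen, CC or lambda levels subtracted and exact tests per gene. Of 12 shallow cortex libraries, 2 equal another library of their animal in 6 decimals of the CA fraction and were counted once.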

Additional observations from a re-analysis of the deposited data

How the results depend on the processing

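The mCA fall of all 5 genes kept its sign and passed limma on a logit scale, with sex as covariate, in males alone, with looser or stricter filters, without a trend and with a replicate block on the title number. It depended on whether a library's overall level was kept. With library medians subtracted, 5283 genes were lower and 6523 higher in mCA, Dnmt3a was at 0.425, Dnmt1 at 0.426 and Uhrf1 at -0.366 points. Dnmt3b at -1.11 and Dnmt3l at -0.595 points still passed as lower there (limma adjusted p = 0.000524 and 0.0238). In log2 ratios to the library mean, 1 gene was lower and 0 higher, with Dnmt3a at 0.13, Dnmt3b -0.14, Dnmt3l -0.025, Dnmt1 0.16 and Uhrf1 -0.00748. None of the 5 passed in log2 ratios (limma adjusted p from 0.614 for Dnmt3b to 0.989 for Uhrf1). Females alone gave 7841 genes lower and 27 higher, with Dnmt3a at -0.640, Dnmt1 at -0.463 and Uhrf1 at -1.15 points. Genes higher in mCA, 7 in the fit of the report, numbered 54 in males, 4 without a trend, 15 with the replicate block, 11 in the same 6 animals without it, and 3 to 21 with 1 animal left out. The replicate block on 6 animals gave 15732 genes lower in mCA, beside 13144 without the block. Dnmt1 was at -0.462 points in those 6 animals, with a limma adjusted p of 0.0354 under the block and 0.102 without it, and at -0.578 to -0.355 with 1 animal left out. In mCG the replicate block gave limma adjusted p from 0.147 for Dnmt3a to 0.425 for Uhrf1 in those 6 animals, against 0.737 to 0.859 without it, and called none of the 5. For mCG, 0 to 1 genes were lower and 0 to 1 higher with 1 animal left out, and 1 was higher in females. The mCG difference of Dnmt3l was 1.70 points with medians subtracted and 0.033 as log2 ratio. It was 0.803 points in males and -1.29 to 0.179 with 1 animal left out. Those of Dnmt1 and Uhrf1 were 0.821 points each with medians subtracted and 0.019 each as log2 ratio. None of these mCG differences passed limma. The mCG difference of Dnmt3a was -5.57 points, with an unadjusted exact permutation p of 0.0286, the smallest possible. Its limma p was 0.0317 before adjustment, and it did not pass once adjusted over all genes (limma adjusted p = 0.476). In 4.94% of all genes, as here, every hKO animal lay below every WT animal. The mCA ratio difference of Dnmt3l was 0.0304 against the library median. With 1 animal left out, 4 against 3 cannot give an exact p under 0.05, so ratios had no test there. The mCG ratio difference of Dnmt3a was then -0.0535 to -0.0463, while in mCA those of Uhrf1 (-0.0903 to 0.0913) and Dnmt3l (-0.0479 to 0.0571) changed sign and those of Dnmt3a (0.0258 to 0.0622), Dnmt1 (0.0238 to 0.0827) and Dnmt3b (-0.202 to -0.0951) did not. The cause of these shifts was not tested. Coverage per gene is unknown, and 4 animals a genotype limit the precision.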

Other observations

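Cytosines at CC sites are scarcely methylated in brain, and the CC level of a library is commonly taken as a measure of failed conversion. No CC level of the deep libraries behind the gene values was used. For 6 of the 8 animals the shallow cortex libraries, 10 once 2 copies are left out, give that level from a separate library. It was 0.348%, 0.347% and 0.272% in hKO animals 694, 046-2 and 047-1, against 0.376%, 0.381% and 0.305% in WT animals 695, 046-1 and 047-2. With that level subtracted, which was decided once the data were known and is described without a test, Dnmt3a had 49.8% of its WT level in hKO, Dnmt3b 50.1%, Dnmt3l 54.4%, Dnmt1 51.9% and Uhrf1 53.1%, beside 50.1% for the mean of all genes. In the same 6 animals the uncorrected shares were 62.4%, 53.7%, 58.5%, 64.0% and 57.8% in the same gene order, beside 57.1% for the mean of all genes. The unmethylated lambda DNA added to the shallow libraries gave higher background levels than CC, from 0.402% to 0.509% in these hKO animals and from 0.471% to 0.544% in the WT animals. Lambda was above 0 in 6 of the 10 shallow libraries, and values of 0 were left out. With lambda subtracted instead, the shares were 39.99% for Dnmt3a, 48.3% for Dnmt3b, 52.3% for Dnmt3l, 42.5% for Dnmt1 and 50.6% for Uhrf1, beside 46.19% for the mean of all genes. Dnmt3a and Dnmt1 had the highest shares uncorrected and the lowest with lambda subtracted, so the order of the 5 shares depends on the background chosen.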
